A study of Homo sapiens with 42 samples.

Results

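The tricarboxylic acid (TCA) cycle enzymes described here are 9 genes, CS, IDH3A, IDH3B, IDH3G, OGDH, DLST, SUCLG1, FH and MDH2, found by matching the symbols to the gene names of the count table. All 9 were in the table of 57353 gene names and all 9 were among the 12939 genes that passed the filter on low counts, with 572 to 43274 counts per library. The cells were MOLM-13, a FLT3-ITD line of acute myeloid leukemia (AML), in which part of the receptor kinase FLT3 is duplicated in tandem, labelled WT in every group. Treatment lasted 12 h. The medium was RPMI with serum or hBMSC-CM, a mixture of such RPMI with medium taken from cultures of the bone marrow stromal line HS-5. In RPMI the groups were vehicle (DMSO), 3 nM quizartinib (a FLT3 inhibitor) and the combination of quizartinib with 10 nM everolimus (an mTOR inhibitor), called combo. In hBMSC-CM the groups were vehicle, quizartinib, everolimus and combo, and RPMI cultures with everolimus alone were not analysed here. Each of the 7 conditions had 3 cultures, and each culture gave an input library (total polyadenylated RNA) and a heavy polysome library (messages from the dense part of a sucrose gradient), 42 libraries in all. Everything below comes from 1 cell line, and the label replicate names a culture without saying how far the cultures were kept apart, so the tests measure the spread between these cultures.

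The TCA cycle oxidizes acetyl groups in the mitochondrial matrix, and the NADH and FADH2 it makes feed the respiratory chain. All 9 enzymes are encoded in the nucleus, translated in the cytosol and imported. CS condenses acetyl-CoA with oxaloacetate to citrate, the NAD-dependent isocitrate dehydrogenase is built from the catalytic subunit IDH3A and the regulatory subunits IDH3B and IDH3G, and OGDH and DLST are components of the 2-oxoglutarate dehydrogenase complex. SUCLG1 is the alpha subunit of succinyl-CoA ligase, FH hydrates fumarate to malate, and MDH2 oxidizes malate to oxaloacetate. AML cells are known to depend heavily on mitochondrial respiration.

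The genes lie on 8 chromosomes of GRCh38. CS spans chr12:56271699-56300391 on the minus strand, IDH3A chr15:78131498-78171945 on the plus strand, IDH3B chr20:2658395-2664219 on the minus strand and IDH3G chrX:153785766-153794512 on the minus strand. OGDH spans chr7:44606572-44709066 and DLST chr14:74881891-74903743, both on the plus strand. SUCLG1 spans chr2:84423528-84460045 and FH chr1:241497511-241519799, both on the minus strand, and MDH2 spans chr7:76048051-76067508 on the plus strand. All counts are over exons of whole genes. Whether reads were counted by strand is not stated, and exons of the antisense gene SSR4 overlap 267 exon bases of IDH3G, so reads of IDH3G and SSR4 there cannot be told apart without strand. Levels are given as counts-per-million (CPM) values, and SSR4 had a mean of 182 CPM in input. Exons of an antisense gene known by its identifier, ENSG00000289076, overlap 269 exon bases of SUCLG1. For CS, 28 exon bases overlap the antisense gene CNPY2-AS1 and 220 a gene on the same strand, ENSG00000144785. CS (CSP1 and CSP2), DLST (DLSTP1) and FH (FHP1) have named pseudogenes that could share reads with them. Exons of CIB2 and ACSBG1 overlap 2646 exon bases of IDH3A on the other strand, and both were near 0 in input, at a mean of 0.847 and 0.580 CPM.

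The first bases of the messages are shown because mTOR, the target of everolimus, is known to control translation of messages that begin with a C followed by a run of pyrimidines (a TOP motif). RefSeq promoters of GRCh38.p14 were given for 8 of the 9 genes, OGDH being the other. The annotated first 15 bases read as follows, 5′ to 3′ on the strand of the gene, with the first 5 bases in capitals.
CS, chr12:56300316-56300330, minus strand: CCTTCagccgcctcc
IDH3A, chr15:78149362-78149376, plus strand: ACTGCcgctgcggct
IDH3B, chr20:2664202-2664216, minus strand: ACTTCccacgcgact
IDH3G, chrX:153794361-153794375, minus strand: GAGAGcggtatctgc
DLST, chr14:74881916-74881930, plus strand: ATATCcggtgtccgc
SUCLG1, chr2:84459266-84459280, minus strand: GTCATtggcgtatga
FH, chr1:241519741-241519755, minus strand: GCCCAgaaattctac
MDH2, chr7:76048106-76048120, plus strand: ACTTCcccgtcacca
Of these 8 starts only that of CS is a C followed by 4 pyrimidines, which 4.07% of all 35116 RefSeq promoters hold. Annotated starts are not starts measured in these cells.

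Exact matches to 6 motifs were searched on both strands from 250 bases before to 50 bases after each start. The ETS motif CCGGAAG was in 4 of the 8 promoters (10.3% of all promoters), and the windows are shown in the orientation of the gene with the match in capitals.
IDH3B, chr20:2664240-2664266, minus strand, 40 bases before the start: tcagtacaggCCGGAAGtcggggtacg
IDH3G, chrX:153794451-153794477, minus strand, 92 bases before the start: gctctaggcgCCGGAAGggggcgtgaa
DLST, chr14:74881884-74881910, plus strand, 22 bases before the start, reverse complement: gcccgccccaCTTCCGGttgttgtccg
MDH2, chr7:76047983-76048009, plus strand, 113 bases before the start: tttccgactcCCGGAAGtggccgtgat
MDH2, chr7:76048027-76048053, plus strand, 69 bases before the start: gcgagcgcgaCCGGAAGtccggtcact
The NFY motif CCAAT was in the promoters of CS, IDH3G, SUCLG1 and FH (34.6% of all promoters). CACGTG (E-box, 7.26%), CGCATGCGC (NRF1, 1.92%), AAGATGGCG (YY1, 1.75%) and TCAAGGTCA (ERR, 0.353%) were in none of the 8. A match is a run of letters and not a measured binding site.

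Libraries held 19439370 to 38786394 counts. The 9 of 9 myeloid markers were detected (summed 1263 to 2061 CPM in input) and lymphoid and erythroid markers summed to at most 2.26 CPM in any library. Of 10 bone marrow stromal markers, 3 were at 0 in every library, and the sum of the 10 was 0.837 to 4.70 CPM in RPMI vehicle input and 9.55 to 41.4 CPM with quizartinib, mostly COL1A1. In hBMSC-CM that sum was 1.28 to 4.01 CPM with vehicle and 6.0 to 23.9 CPM with quizartinib. Replicate 1 inputs of the 6 conditions other than everolimus held 5.80 to 8.53% mitochondrially encoded counts against 2.53 to 4.45% in replicates 2 and 3, so results that change without 1 of these replicate numbers are given with that value. The everolimus libraries stood apart from this numbering, with 3.04 to 3.59% in all 3 inputs and far closer replicates. For CS, the SD of input over 3 cultures was 3.08 CPM with everolimus and 40.0 to 54.6 CPM in the other conditions. How this relates to when the libraries were made is not given in the sources used here, and a batch cannot be told apart from everolimus. All CPM below are scaled by TMM factors, and log2 CPM adds a prior count of 2.

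Per kilobase of merged exon, the input level of RPMI vehicle was highest for MDH2 (107 ± 18.1 CPM per kb, SD, n = 3) and lowest for IDH3A (7.75 ± 0.152). IDH3B was at 52.0, IDH3G at 41.8, CS at 30.7, SUCLG1 at 20.4, DLST at 18.7, OGDH at 18.1 and FH at 13.9 CPM per kb. Neighbours IDH3G and CS, SUCLG1 and DLST, DLST and OGDH, and OGDH and FH overlapped between cultures. The length used moved this order: by the length of the Ensembl canonical transcript FH rose from 8th to 4th place at 72.4 CPM per kb, since its merged exons span 9350 bases and its canonical transcript 1791. MDH2 at 179 and IDH3A at 13.0 CPM per kb stayed at the ends by either length. Within isocitrate dehydrogenase, the catalytic subunit was the scarcest message by both lengths.

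The first question is what quizartinib did to these messages in RPMI. Levels of 4 of the 9 genes fell, IDH3A, SUCLG1, FH and MDH2, and none rose. Of all genes tested 18.0% were lower. The median log2 change of the 9 was -0.54 and that of all genes 0.08, and 8 of the 9 changes were negative. With other size factors the median of all genes was 0.13 (RLE) or 0.15 (library size), and the members moved with it, SUCLG1 for example from -0.54 to -0.47 with library size alone.

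IDH3A was at 53.3, 51.7 and 53.6 CPM with vehicle and at 24.9, 22.4 and 22.0 CPM with quizartinib. The groups were far apart, and input fell by 1.19 (log2, SE 0.17, edgeR adjusted p = 1.23e-06), 2.29-fold lower. FH was at 142, 124 and 124 CPM with vehicle and at 63.3, 54.4 and 49.4 CPM with quizartinib. The fall was 1.22 in log2 units (SE 0.18, edgeR adjusted p = 2.22e-06), 2.33-fold lower, with no overlap.

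MDH2 was at 462, 369 and 334 CPM with vehicle and at 268, 205 and 165 CPM with quizartinib. In both groups replicate 1 was the highest, yet each quizartinib culture lay below each vehicle culture, and the level fell by 0.87 (log2, SE 0.25, edgeR adjusted p = 0.00613). Without replicate 2 of 6 conditions the edgeR adjusted p for MDH2 was 0.0504. SUCLG1 was at 90.8, 79.5 and 84.9 CPM with vehicle and at 62.3, 57.3 and 56.3 CPM with quizartinib. It fell by 0.54 (log2, SE 0.16, edgeR adjusted p = 0.0105), again with no overlap. Its adjusted p was 0.0872 without replicate 1 of 6 conditions and 0.188 with no filter on low counts, under which many more genes were tested.

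The other 5 did not pass. OGDH was at 113, 94.1 and 75.4 CPM with vehicle and at 64.3, 67.3 and 48.3 CPM with quizartinib, a difference of -0.65 (log2, SE 0.44, edgeR adjusted p = 0.269). Each quizartinib culture was below the vehicle culture of the same number, and with the replicate number as a block OGDH passed (edgeR adjusted p = 0.0457), which made 5 members called. No share over all genes is given for that fit. The regulatory subunits differed less than the catalytic one: IDH3B by -0.35 (SE 0.23, edgeR adjusted p = 0.250, no overlap) and IDH3G by -0.25 (SE 0.21, edgeR adjusted p = 0.386, overlap). CS differed by -0.29 (SE 0.25, edgeR adjusted p = 0.406) and DLST by 0.03 (SE 0.24, edgeR adjusted p = 0.948), with overlapping cultures in both. The stromal marker sum named above rose with quizartinib, opposite in direction to the levels that fell, and its part in them was not tested. In bulk RNA, fewer cells of a type and less RNA per cell cannot be told apart.

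**Figure D1:**
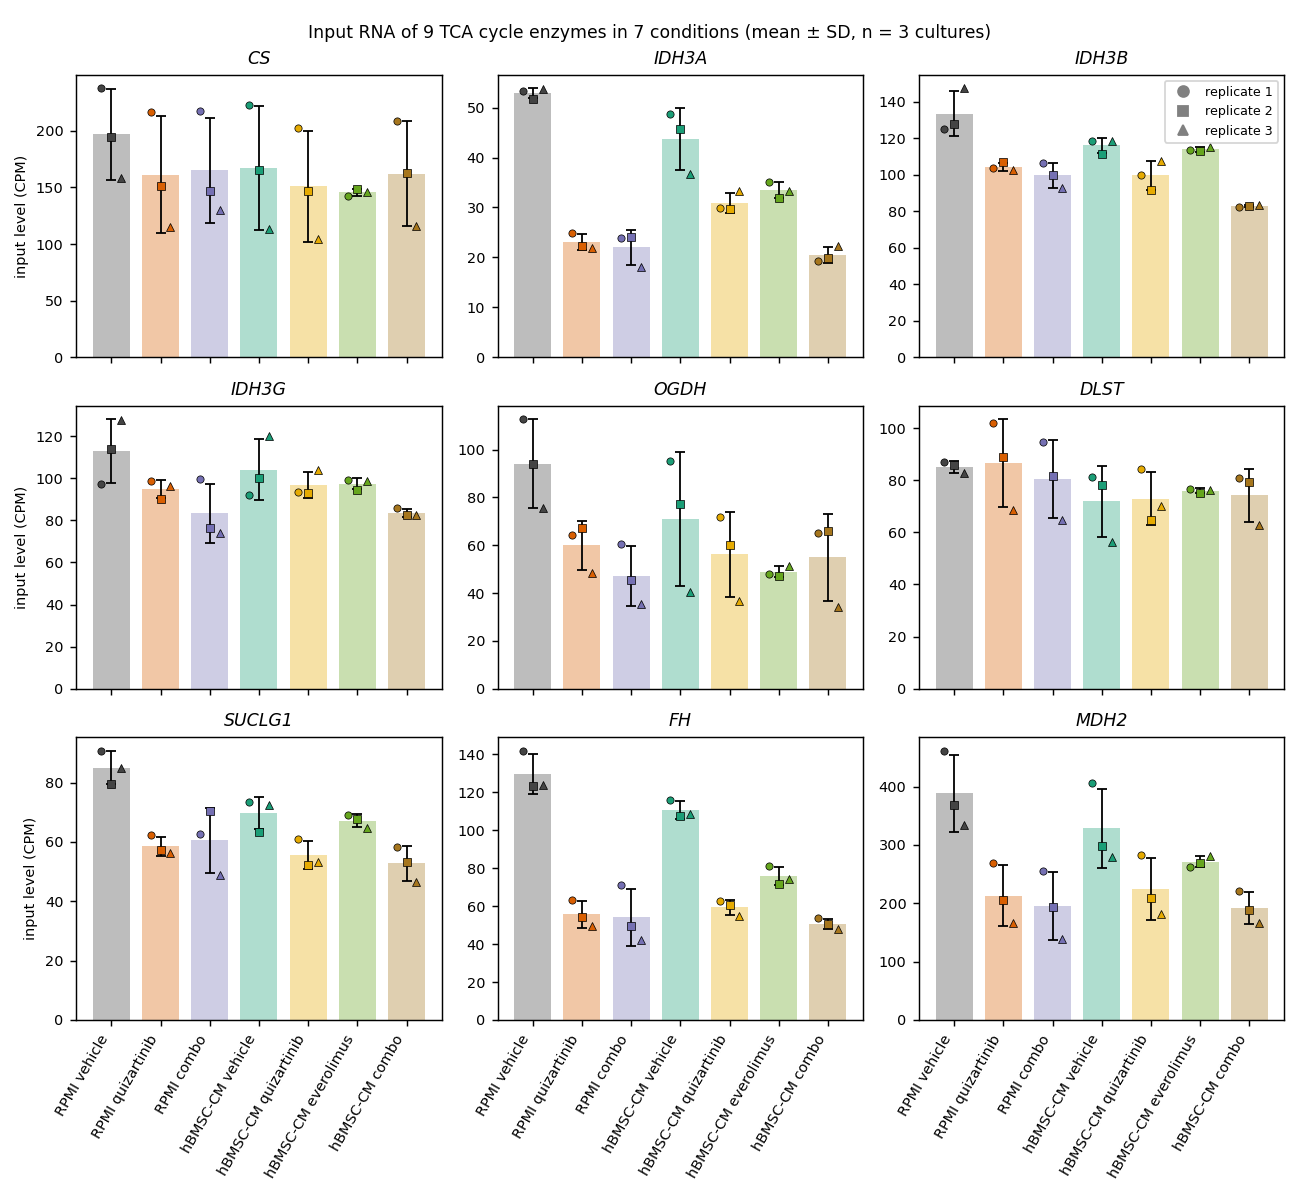
Input level in CPM (vertical axes, from 0) of each of the 9 genes in the 7 conditions. Bars are means, whiskers SD and points the 3 cultures by replicate number. FH sits at 124 to 142 CPM in RPMI vehicle and at 49.4 to 63.3 CPM with quizartinib, while DLST overlaps between these groups.

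The next question is how far these falls held in stromal conditioned medium. There 1 of the 9 genes fell, FH, and none rose (6.84% of all genes were lower). limma-voom and DESeq2 each called 2, and the fit with the replicate block called 3, with no share over all genes given for these fits. The median log2 change of the 9 was -0.33 against 0.01 for all genes. FH was at 116, 107 and 109 CPM with vehicle and at 62.7, 60.7 and 55.0 CPM with quizartinib, lower in each culture. This was a fall of 0.90 (log2, SE 0.18, edgeR adjusted p = 0.00118), 1.86-fold.

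IDH3A in hBMSC-CM was at 48.6, 45.8 and 36.8 CPM with vehicle and at 29.8, 29.7 and 33.3 CPM with quizartinib. The groups did not overlap, though replicate 3 differed little, and the difference of -0.50 (log2, SE 0.17) missed the threshold (edgeR adjusted p = 0.0511). With the replicate block the edgeR adjusted p was 0.0282. Leaving out hBMSC-CM vehicle replicate 3 gave an edgeR adjusted p of 0.0296, leaving out replicate 3 of 6 conditions 0.0101, and leaving out replicate 1 of 6 conditions 0.329. The same difference had an adjusted p of 0.0384 in limma-voom and 0.0305 in DESeq2.

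MDH2 in hBMSC-CM was at 406, 299 and 279 CPM with vehicle and at 283, 210 and 181 CPM with quizartinib, where 1 quizartinib culture lay above 1 vehicle culture. The difference was -0.55 (log2, SE 0.25, edgeR adjusted p = 0.144), and with the replicate block the edgeR adjusted p was 0.0253. SUCLG1 differed by -0.33 (SE 0.16, edgeR adjusted p = 0.198) and its groups did not overlap. IDH3B (-0.22), CS (-0.14), IDH3G (-0.11), OGDH (-0.34) and DLST (0.02) had log2 differences within 1 SE of 0, and the groups of IDH3B did not overlap.

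**Figure D2:**
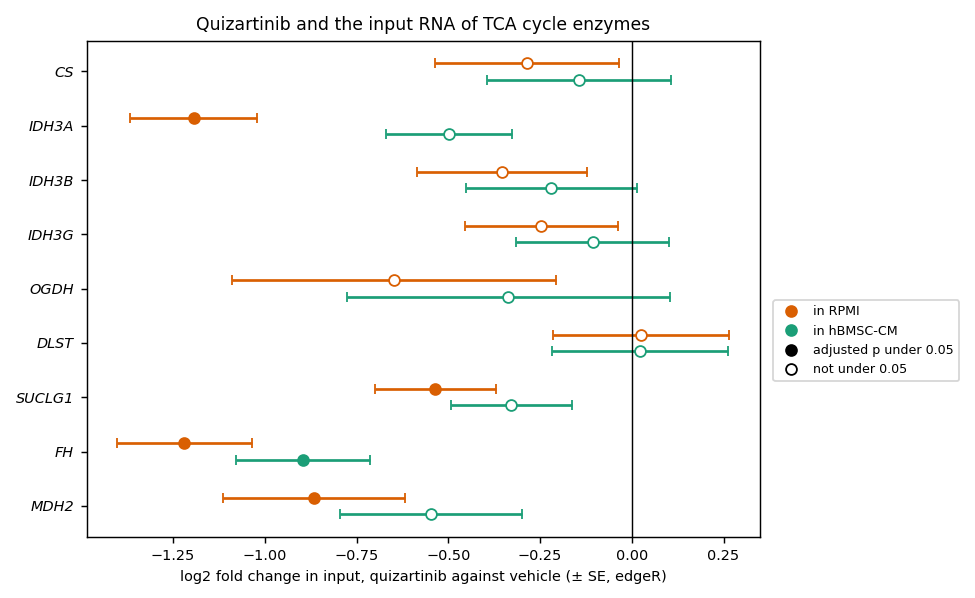
Log2 fold change in input, quizartinib against vehicle (horizontal axis, point ± SE from edgeR), for each gene in RPMI and in hBMSC-CM. Filled points have an adjusted p under 0.05: IDH3A, SUCLG1, FH and MDH2 in RPMI, and FH in hBMSC-CM.

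Whether the quizartinib change itself differed between media was tested as an interaction. It passed for 0 of the 9 members (1.96% of all genes) in edgeR, and also for 0 in limma-voom and DESeq2. In edgeR 1 had an unadjusted p under 0.05 (1293 of 12939 genes). That was IDH3A, whose change with quizartinib was less negative in hBMSC-CM by 0.70 (log2, SE 0.24, edgeR adjusted p = 0.180) and less negative in each of the 3 numbered cultures. A block fitted within each fraction gave IDH3A an edgeR adjusted p of 0.0481, and that fit called 876 of all genes, against 254 without a block. The estimates of the other 8 were from -0.00 for DLST to 0.32 for FH and MDH2.

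Under quizartinib, hBMSC-CM and RPMI differed in 0 of the 9 input levels (8.16% of all genes) in edgeR, limma-voom and DESeq2. In edgeR 1 had an unadjusted p under 0.05 (2362 of 12939 genes). IDH3A was again that gene, with 30.9 ± 2.02 CPM against 23.1 ± 1.61 CPM in RPMI (SD, n = 3). No culture overlapped, and the log2 difference was 0.42 (SE 0.17, edgeR adjusted p = 0.150). FH, by contrast, was at 59.5 ± 3.97 and 55.7 ± 7.04 CPM, a log2 difference of 0.10 (SE 0.18, edgeR adjusted p = 0.868).

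Under vehicle, 0 of the 9 differed between media (1.51% of all genes) in edgeR, limma-voom and DESeq2. In edgeR 0 had an unadjusted p under 0.05 (970 of 12939 genes). The 9 log2 differences ran from -0.41 (OGDH) to -0.11 (IDH3G), all lower in hBMSC-CM, with a median of -0.24 against -0.01 for all genes. Since the vehicle cultures enter both this comparison and the interaction, the values are not independent of each other.

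Everolimus was added to quizartinib in both media. In hBMSC-CM 0 of the 9 passed (0.240% of all genes) in edgeR and limma-voom. DESeq2 called 1 of the 9 and 93 of all genes, against 31 of all genes in edgeR. In edgeR 1 had an unadjusted p under 0.05 (789 of 12939 genes). That gene was IDH3A, at 29.8, 29.7 and 33.3 CPM with quizartinib and at 19.4, 19.9 and 22.2 CPM with combo. It was lower in each of the 3 numbered cultures, with a log2 difference of -0.60 (SE 0.17, edgeR adjusted p = 0.165), and the DESeq2 adjusted p was 0.0389. With combo the IDH3A level in hBMSC-CM (20.5 ± 1.53 CPM) overlapped those of RPMI combo (22.0 ± 3.47) and RPMI quizartinib (23.1 ± 1.61).

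IDH3B went from 99.6 ± 7.94 to 82.8 ± 0.542 CPM in that comparison and IDH3G from 96.7 ± 6.31 to 83.7 ± 1.82 CPM (SD, n = 3). Neither pair of groups overlapped, and both had an edgeR adjusted p of 1. FH went from 59.5 ± 3.97 to 50.7 ± 2.79 CPM, also without overlap and with an adjusted p of 1 in edgeR. In RPMI, combo and quizartinib differed in 0 of the 9 (0.00773% of all genes) in edgeR, limma-voom and DESeq2. In edgeR 0 had an unadjusted p under 0.05 (172 of 12939 genes), and log2 differences were -0.35 (OGDH) to 0.05 (SUCLG1).

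Everolimus alone against vehicle in hBMSC-CM passed for 0 of the 9 (0.410% of all genes) in edgeR, limma-voom and DESeq2. In edgeR 2 had an unadjusted p under 0.05 (1123 of 12939 genes), FH and IDH3A. FH was at 81.0, 71.9 and 74.4 CPM with everolimus, below all 3 vehicle cultures, and differed by -0.55 (log2, SE 0.18, edgeR adjusted p = 0.220). IDH3A was at 35.2, 31.9 and 33.3 CPM, also below all vehicle cultures, and differed by -0.39 (SE 0.17, edgeR adjusted p = 0.487). These 2 genes were the ones that fell most with quizartinib in RPMI.

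Across the 7 conditions, FH and IDH3A had the widest ranges of input levels among the 9, from 100% in RPMI vehicle to 39.1% and 38.7% of it in hBMSC-CM combo. MDH2 reached 49.4% and OGDH 50.1%, whereas DLST lay between 84.5% and 102%. For FH, the order was RPMI vehicle, hBMSC-CM vehicle and hBMSC-CM everolimus without overlap between neighbours, and the remaining 4 conditions overlapped along the order. For IDH3A, RPMI vehicle and hBMSC-CM vehicle were the highest, everolimus and quizartinib in hBMSC-CM overlapped, and the other 3 formed a lower overlapping set.

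Counts of subunits of 1 complex, and of the separate enzymes FH and MDH2, were also compared within each library, which needs no scaling between libraries. IDH3A counts were 42.6, 40.5 and 36.4% of IDH3B counts in RPMI vehicle input and 24.1, 21 and 21.4% with quizartinib. In hBMSC-CM they were 41.2, 41.0 and 31.1% with vehicle and 29.9, 32.5 and 31.0% with quizartinib. Combo gave 22.1% ± 2.4 in RPMI and 24.7% ± 1.7 in hBMSC-CM, and everolimus 29.4% ± 1.4 (SD, n = 3). The vehicle and quizartinib cultures were apart in RPMI and overlapped in hBMSC-CM. An exact permutation test of 3 against 3 cannot go below p = 0.1, so these shares are given without a test.

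IDH3B counts stayed between 96.1 and 130% of IDH3G counts in the inputs of all conditions. OGDH counts were 110% ± 19.2 of DLST counts in RPMI vehicle input and 69.7% ± 6.3 with quizartinib (SD, n = 3), without overlap. In hBMSC-CM they were 96.1% ± 23.1 and 76.9% ± 21.6, with overlap. FH counts were 33.7% ± 3.1 of MDH2 counts in RPMI vehicle input and 26.6% ± 3.1 with quizartinib (SD, n = 3), a pair of groups without overlap. The ratios compare counts, which also depend on message length, so only their changes between conditions can be read.

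**Figure D3:**
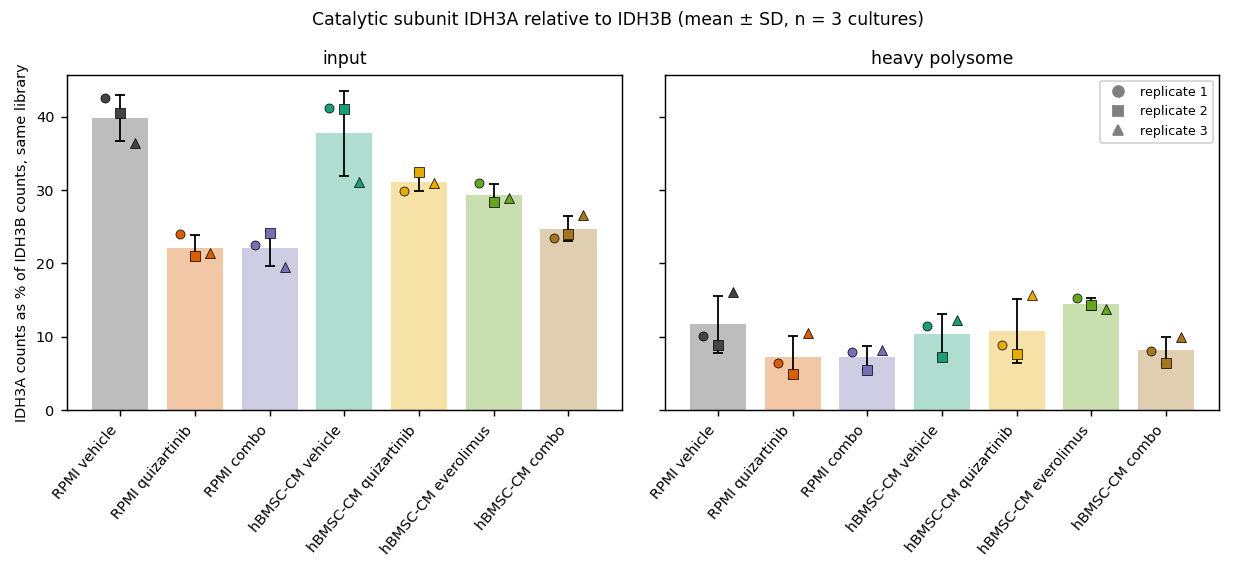
IDH3A counts as a percentage of IDH3B counts in the same library (vertical axis, from 0), in input and in heavy polysomes, for the 7 conditions. Bars are means, whiskers SD and points the 3 cultures. Input shares are 36.4 to 42.6% in RPMI vehicle and 21 to 24.1% with quizartinib, and polysome shares are lower in each condition.

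Heavy polysomes hold messages loaded with many ribosomes, and the log2 level there minus that in input describes how a message is shared between the fractions relative to other messages. In RPMI vehicle, 6 of the 9 were higher in polysomes (31.5% of all genes), MDH2, IDH3G, IDH3B, SUCLG1, DLST and OGDH, and 1 was lower, FH (33.9% of all genes). IDH3B, IDH3G, OGDH, DLST, SUCLG1 and MDH2 lay above 0 in 21 of 21 cultures over all conditions. The share of all genes that did so is not given here, so this count is a description. CS lay above 0 in 15 of the 21, IDH3A in 6 and FH in 5. The median over all genes was between -0.11 and 0.06 (log2) in the 7 conditions with TMM factors and between -0.63 and -0.22 with library size alone.

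MDH2 in RPMI vehicle was at 462, 369 and 334 CPM in input and at 1609, 1574 and 1014 CPM in polysomes. It was 3.60-fold higher there (log2 1.85, SE 0.25, edgeR adjusted p = 2.65e-07), the largest value of the 9, and its mean over conditions ran from 1.68 to 1.96 (log2). IDH3G was at 97.2, 114 and 128 CPM in input and at 432, 399 and 216 CPM in polysomes, 3.09-fold higher (log2 1.63, SE 0.21, edgeR adjusted p = 1.27e-07). IDH3B was at 125, 128 and 147 CPM in input and at 453, 501 and 208 CPM in polysomes, 2.90-fold higher (log2 1.54, SE 0.24, edgeR adjusted p = 1.60e-06). No fraction overlapped for these 3 genes, and for all 3 the polysome library of replicate 3 was the lowest.

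SUCLG1 was 2.28-fold higher in polysomes of RPMI vehicle (194 ± 46.9 against 85.0 ± 5.64 CPM, edgeR adjusted p = 3.41e-07) and DLST 2.08-fold (177 ± 66.3 against 85.0 ± 2.21 CPM, edgeR adjusted p = 0.000319). OGDH was 2.01-fold higher (189 ± 91.0 against 94.1 ± 18.6 CPM, edgeR adjusted p = 0.0454), with the largest SE of the 9 (0.44, log2). That call was lost without any 1 of the RPMI vehicle replicates, in limma-voom, with a stricter filter and with library size alone, and DLST also missed the threshold with library size alone.

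FH went the other way. In RPMI vehicle it was at 142, 124 and 124 CPM in input and at 84.7, 88.9 and 82.4 CPM in polysomes, with no overlap. It fell by 0.61 (log2, SE 0.18, edgeR adjusted p = 0.00418). In hBMSC-CM vehicle 6 genes were again higher (29.6% of all genes) and FH was lower (34.0% of all genes) by 0.52 (log2, SE 0.18, edgeR adjusted p = 0.0135). Without a filter on low counts FH missed the threshold in both vehicle groups. IDH3A in RPMI vehicle was at 52.9 ± 1.04 CPM in input and 41.2 ± 6.71 CPM in polysomes, a log2 difference of -0.36 (SE 0.17, edgeR adjusted p = 0.0634). It was 0.0456 with the replicate block, 0.107 with the block within each fraction and 0.0599 with a block for each culture. CS was nearly level between the fractions, with a log2 difference of 0.13 (SE 0.25, edgeR adjusted p = 0.665).

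The same 6 genes were called higher in polysomes in RPMI quizartinib (31.2% of all genes), RPMI combo (31.7%), hBMSC-CM quizartinib (29.7%) and hBMSC-CM combo (32.9%), and 5 of them in hBMSC-CM everolimus (27.9%). OGDH missed there, with a log2 difference of 0.93 (SE 0.44, edgeR adjusted p = 0.0682), and passed in DESeq2 (adjusted p = 0.0331). OGDH also lost its call without replicate 1 of RPMI quizartinib or of hBMSC-CM vehicle, quizartinib or combo, and without replicate 2 or 3 of RPMI combo. DLST in everolimus (log2 0.72, edgeR adjusted p = 0.0106) lost its call without everolimus replicate 1 or 2. In the fit of all libraries with TMM factors and no block, FH was called lower in the vehicle groups and in none of the other 5. With library size alone FH was also called lower in the 3 treated hBMSC-CM groups. A fit of only the everolimus libraries, with TMM factors, also called FH.

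**Figure D4:**
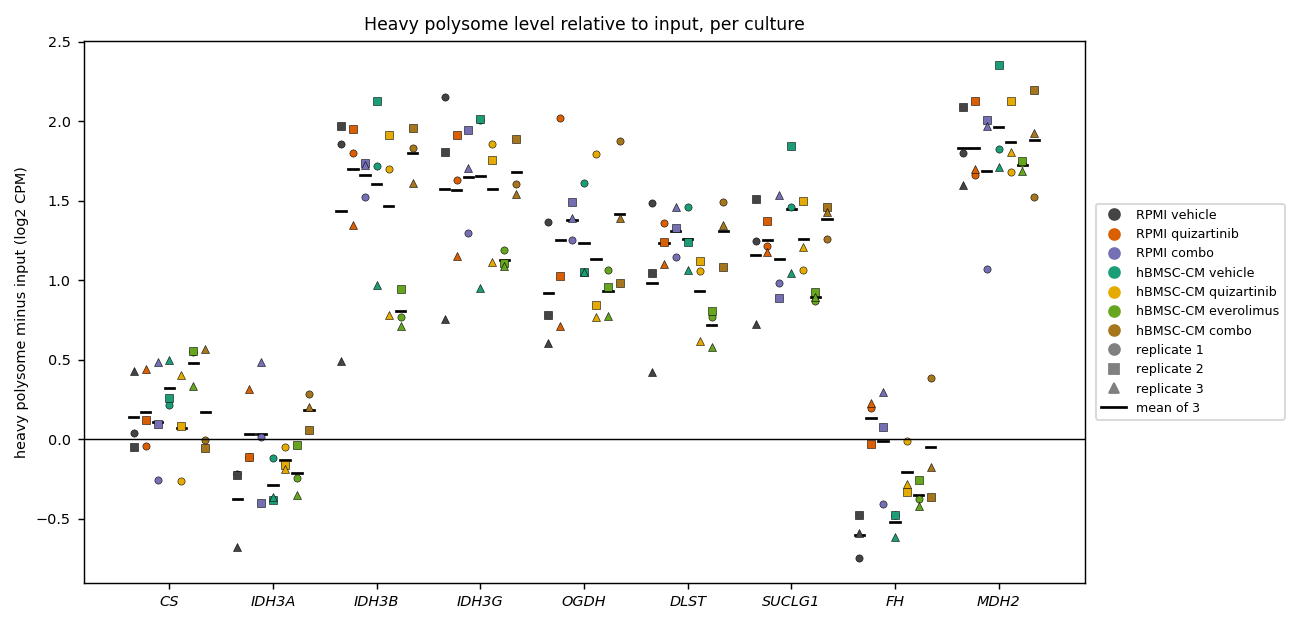
Heavy polysome minus input level (vertical axis, log2 CPM) of each gene per culture, colored by condition with the mean of 3 as a line. MDH2, IDH3B, IDH3G, SUCLG1, DLST and OGDH are above 0 in 21 of 21 cultures, and FH in 5 of 21. No share over all genes is given for these counts.

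Some sequence measures were set beside this split. FH and IDH3A, whose median shifts over the 21 cultures were -0.33 and -0.12 (log2), had the lowest GC content of the coding sequence among the 9, 46.0% and 47.1%, against 48.6 to 59.0% in the other 7. MDH2, IDH3G and IDH3B, with median shifts of 1.80, 1.63 and 1.72, had 57.2%, 59.0% and 54.9%. SUCLG1 had 48.6% and a median shift of 1.22. FH, IDH3A and CS also had the longest merged exons, 9350, 6823 and 6401 bases, against 2567 to 5209 bases in the other 6. The length of the canonical transcript did not follow the split, since OGDH had the longest (4193 bases) and FH, with 1791 bases, was shorter than MDH2 (2170) and DLST (2813). These are 9 points that share libraries, and neither property was tested. The ETS motif was in MDH2, IDH3B, IDH3G and DLST, all higher in polysomes, and not in FH, IDH3A or CS, but SUCLG1, also higher in polysomes in 21 of 21 cultures, had no match. OGDH had no promoter to search. The NFY motif, in CS, IDH3G, SUCLG1 and FH, did not follow the split. No link between a motif and the shift was tested.

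The proportions between these messages differed between the fractions. IDH3A counts were 11.7% ± 3.9 of IDH3B counts in RPMI vehicle polysomes against 39.8% ± 3.2 in input (SD, n = 3), and the polysome share was lower in 21 of 21 cultures. FH counts were 6.35% ± 1.6 of MDH2 counts in the same polysomes against 33.7% ± 3.1 in input, also lower in 21 of 21.

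Treatment was then compared on the polysome minus input scale. It asks whether a message moved between fractions, relative to other messages, beyond its change in input. Each library was scaled by its own counts, so a loss or gain of heavy polysomes common to all messages cannot be seen on this scale. Quizartinib in RPMI passed for 0 of the 9 (1.55% of all genes) in edgeR, limma-voom and DESeq2. In edgeR 1 had an unadjusted p under 0.05 (2014 of 12939 genes). FH, that gene, had shifts of -0.75, -0.48 and -0.59 with vehicle and 0.20, -0.03 and 0.23 with quizartinib (log2). The cultures did not overlap, the difference was 0.74 (SE 0.26, edgeR adjusted p = 0.143), and the replicate block gave an edgeR adjusted p of 0.0310. With a block for each culture, which ties the input and polysome library of 1 culture, the edgeR adjusted p was 0.128. The median over all genes was 0.15 on this scale with TMM, 0.38 with library size alone and 0.01 with RLE factors. In CPM, FH in RPMI polysomes was at 85.3 ± 3.30 with vehicle and 61.3 ± 10.0 with quizartinib, against 130 ± 10.6 and 55.7 ± 7.04 in input (SD, n = 3). IDH3A differed by 0.40 (log2, SE 0.24, edgeR adjusted p = 0.452) and the other 7 by -0.04 to 0.40.

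None of the 9 passed on this scale in the other 7 comparisons in edgeR or limma-voom, where 0% of all genes passed, and DESeq2 gave 0 in the comparisons for which it returned adjusted p-values. For quizartinib in hBMSC-CM the differences ran from -0.34 (DLST) to 0.32 (FH), with 0 of 9 at an unadjusted edgeR p under 0.05 (288 of 12939 genes). For combo against quizartinib they ran from 0.02 to 0.36 in hBMSC-CM and from -0.18 to 0.05 in RPMI, again with 0 of 9 (273 and 93 genes). Between media they ran from 0.06 to 0.32 under vehicle and from -0.33 to 0.03 under quizartinib, with 0 of 9 in each (211 and 450 genes). The interaction gave 0 of 9 as well (624 genes). The SE of these differences was 0.23 to 0.62 and up to 0.88 for the interaction. With 3 cultures, differences well above their SE also missed the threshold, such as that of IDH3B with everolimus given below. The absence of calls therefore does not exclude moves of that size.

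Everolimus against vehicle in hBMSC-CM had the lowest shifts of any condition for IDH3B, IDH3G, DLST and SUCLG1. IDH3B shifts were 1.72, 2.13 and 0.97 with vehicle and 0.77, 0.95 and 0.71 with everolimus (log2), without overlap. The difference was -0.86 (SE 0.33, edgeR adjusted p = 1.00). SUCLG1 shifts were 1.46, 1.85 and 1.04 with vehicle and 0.87, 0.93 and 0.89 with everolimus, a difference of -0.57 (SE 0.23, edgeR adjusted p = 1.00), also without overlap. These 2 genes had an unadjusted edgeR p under 0.05, as did 573 of 12939 genes in all. Input was close between these groups, at 116 ± 3.87 and 114 ± 1.19 CPM for IDH3B and at 69.8 ± 5.47 and 67.1 ± 2.20 CPM for SUCLG1.

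Replicate 3 of hBMSC-CM vehicle was the nearest to everolimus for both genes, and its shift was the lowest of the vehicle cultures. Without replicate 3 of 6 conditions, IDH3B differed by -1.11 (edgeR adjusted p = 0.00339), IDH3G by -0.87 (edgeR adjusted p = 0.0240) and SUCLG1 by -0.75 (edgeR adjusted p = 0.0434). In that fit 158 of 12939 genes passed in all, 126 of them lower. It leaves out the lowest vehicle culture of these genes and keeps all everolimus cultures, so the gap widened by construction. In the fit of all libraries 0 genes passed. Leaving out only hBMSC-CM vehicle replicate 3, or replicate 1 or 2 of 6 conditions, also gave 0. The mean shift of replicate 3 over 6 conditions was 1.16 for IDH3B against 1.74 and 1.94 in replicates 1 and 2, and 1.20 for IDH3G against 1.76 and 1.89. RPMI combo did not follow this, since there replicate 3 lay above replicate 1 for IDH3B (1.72 against 1.52) and was the highest of the 3 for SUCLG1 (1.54). Since the everolimus libraries stood apart as described, everolimus and their preparation cannot be told apart. CS, whose annotated start is the TOP-like one printed above, had its highest mean shift with everolimus (0.48). Its everolimus cultures (0.55, 0.56 and 0.34) overlapped those of hBMSC-CM vehicle (0.22, 0.26 and 0.50), and no link between start and shift was tested.

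Other genes of the pathway give the surroundings of these changes. Of 11 other TCA cycle subunits 10 were tested (not OGDHL). With quizartinib in RPMI 1 fell (18.0% of all genes), SDHB of complex II, from 108 to 69.1 CPM (log2 -0.64, SE 0.19, edgeR adjusted p = 0.00890), and none rose. SDHB lost its call without RPMI quizartinib replicate 3 (or RPMI vehicle replicate 1, or replicate 2 of 6 conditions) and with no filter. IDH2, DLD, MRPS36, SDHA, SDHC, SDHD, SUCLA2 and SUCLG2 had log2 differences of -0.26 to 0.17. None of the 10 passed in hBMSC-CM, where SDHB went from 103 to 73.8 CPM (edgeR adjusted p = 0.0937) and passed with the replicate block.

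Of 10 genes that bring pyruvate into the cycle, 5 fell and 1 rose with quizartinib in RPMI (18.0% of all genes were lower, and 2149 of 12939 higher), DLAT (the E2 of pyruvate dehydrogenase) the most, from 49.4 to 17.1 CPM (log2 -1.53, SE 0.28, edgeR adjusted p = 4.55e-05). PDHA1, its E1 alpha subunit, PDP2, PC and MPC1 also fell, and PDP1 rose from 9.38 to 15.2 CPM (edgeR adjusted p = 0.0158). The calls of PDP1 and MPC1 were lost without single RPMI replicates (quizartinib 1 or vehicle 3, and quizartinib 3 or vehicle 1) and that of PC without replicate 2 of 6 conditions. In hBMSC-CM 3 of the 10 fell (6.84% of all genes), DLAT, PDHA1 and MPC1, and none rose, but only PDHA1 kept its call without each single replicate. PDK2, a kinase that inhibits pyruvate dehydrogenase, was the 1 of 3 tested kinases that rose, from 20.6 to 50.8 CPM in RPMI (log2 1.30, SE 0.21, edgeR adjusted p = 8.19e-06) and from 18.8 to 31.0 CPM in hBMSC-CM (log2 0.72, SE 0.21, edgeR adjusted p = 0.0207). Of 12939 genes, 2149 were higher in RPMI and 706 in hBMSC-CM. Under quizartinib PDK2 was lower in hBMSC-CM than in RPMI (log2 -0.71, edgeR adjusted p = 0.0256), as were 265 of 12939 genes in all. The last 2 PDK2 calls were lost without several single replicates, among them replicate 1 of 6 conditions.

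Of 11 tested genes of anaplerosis and amino acid links, 4 fell and none rose in RPMI, where 18.0% of all genes were lower. ME2, the mitochondrial NAD-dependent malic enzyme, fell the most, from 73.7 to 39.9 CPM (log2 -0.88, SE 0.33, edgeR adjusted p = 0.0332), and lost its call without any 1 of RPMI quizartinib replicates 2 and 3 and RPMI vehicle replicate 1. Of 6 carriers of cycle intermediates 3 fell against the same 18.0%, the dicarboxylate carrier SLC25A10 the most, from 9.32 to 2.65 CPM (log2 -1.81, SE 0.38, edgeR adjusted p = 2.61e-04). In hBMSC-CM, where 6.84% of all genes were lower, 1 of each list fell, GOT1 and SLC25A10, and both calls were lost without single replicates, hBMSC-CM quizartinib replicate 2 among them. None of 7 tested genes of lipoylation and complex II assembly passed in either medium.

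The other subunits of the cycle were also divided between the fractions. IDH2, SDHB and SDHC were called higher in polysomes in all 7 conditions, by 1.00 to 1.89 (log2), and all 3 kept those calls under every alternative run. Between 27.9 and 32.9% of all genes were called higher per condition. SDHA was called higher in RPMI quizartinib (log2 0.93) and hBMSC-CM combo (log2 1.07), and lost both calls with library size alone and without replicate 1 of that condition. SUCLA2, the beta subunit that pairs with SUCLG1, was called lower in all 7, by log2 values of -1.47 to -0.59, and the calls of RPMI quizartinib, RPMI combo and hBMSC-CM quizartinib were each lost without single replicates. In RPMI vehicle SUCLA2 was at 28.5 CPM in input and 12.3 CPM in polysomes, while SUCLG1 went from 85.0 to 194 CPM. DLD, the E3 shared by the 2-oxoglutarate and pyruvate dehydrogenase complexes, was called lower in RPMI vehicle, hBMSC-CM vehicle and hBMSC-CM combo. SUCLG2, SDHD and MRPS36 were called in none.

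Likeness was measured over the 8513 genes whose mean reached 10 CPM, and the 5 genes whose centred log2 input pattern over the 7 conditions lay nearest to the median pattern of the 9 were FTO, SYMPK, TCF3, RCC1L and CDC20. Their root mean square distances were 0.026, 0.048, 0.049, 0.051 and 0.055, against a median of 0.33 over all 8513. FTO ran from 0.42 in RPMI vehicle to -0.31 in hBMSC-CM combo, and the median of the members from 0.42 to -0.27. Of the members themselves SUCLG1 (0.064) and IDH3B (0.066) lay nearest to that median pattern, and FH (0.31) and IDH3A (0.29) farthest. The likeness is over 7 means from the same libraries and is a description.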

How the data were processed

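RNA-seq counts of 42 libraries from MOLM-13 cells were analysed. Per the study's methods, the authors trimmed reads with BBDuk, aligned them with STAR 2.6.0a to Ensembl hg38 and tested with limma. The deposited values are raw counts per gene, with no filter, and strand use is not given in the sources used here. Depth was 19439370 to 38786394 counts per library. Of 58884 gene rows, 57353 names remained after summing repeated names, and 12939 with a mean count and a mean CPM of at least 1 were kept.

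All 42 libraries entered 1 edgeR 4.0.16 quasi-likelihood fit (R 4.3.3) of 14 group means with TMM factors and no block. The input and polysome library of 1 culture, and same-numbered cultures, were thus treated as independent in it. Tests were two-sided with Benjamini-Hochberg adjustment over 12939 genes and a threshold of 0.05. Alternatives were limma-voom 3.58.1, DESeq2 1.42.0, other size factors and filters, a replicate block, fewer libraries and leaving out replicates. The replicate numbers paired the samples in the 6 conditions other than everolimus. Same-numbered inputs deviated together there (correlation 0.347 to 0.658 over 18 pairs), which everolimus inputs did not with those of vehicle (-0.0147 to -0.000365). In polysomes the correlations were 0.156 to 0.715, and -0.0898 to 0.0267 for everolimus. The gene, marker and motif lists and all 9 members were chosen with earlier results of these data known. Named genes were all members, the other TCA cycle subunits (1 is not reported here), the called gene with the largest rise or fall of each further list, and the 5 most alike. PDHA1, PDP2, PC, MPC1, GOT1 and the stromal marker COL1A1 were named after their values were seen. Gene coordinates are from the GENCODE annotation of GRCh38. Scripts were tested on simulated data.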

Additional observations from a re-analysis of the deposited data

How the results depend on the processing

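Over all alternatives no call of a member changed direction, and of the counts of members called, 399 stayed within 1.5 times the value given and 20 did not. For quizartinib in hBMSC-CM input, limma-voom, DESeq2 and the stricter filter called 2 members and both fits with a replicate block called 3, against 1, and leaving out replicates gave 1 to 2. The counts over all genes in these fits are not given here. For combo against quizartinib in hBMSC-CM input, DESeq2 and a replicate block within each fraction called 1 (IDH3A), against 0. Those settings called 93 and 380 of all genes, against 31. For everolimus in hBMSC-CM input, both fits with a replicate block called 1 (FH), although these numbers do not pair the everolimus cultures. The 2 fits called 244 and 675 of all genes, against 53. For the interaction in input, the replicate block within each fraction called 1 (IDH3A), and 876 of all genes, against 254. For quizartinib in RPMI, polysome minus input, library size alone, the replicate block and the block within each fraction called 1 (FH), and the block per culture called 0. For everolimus, polysome minus input, leaving out replicates gave 0 to 3 calls, the 3 without replicate 3 of 6 conditions. For polysome against input with everolimus, 5 members were called, 8 with the replicate block, 9 when only these 6 libraries were fitted, and 4 to 8 when replicates were left out. The causes were not tested. The replicate block changed no other count by over 1.5 times, and single calls it changed stand beside their values. Leaving out a replicate number of 6 conditions at once and the canonical transcript length were chosen after seeing the data. DESeq2 returned no adjusted p for 8 of 9 members in 2 comparisons between media. With 3 cultures, differences in polysome minus input near or below the SE of 0.23 to 0.62 cannot be read, and some well above their SE also missed the threshold.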
